A study of Caenorhabditis elegans with 2 samples.

Results

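Peaks at small nucleolar RNA (snoRNA) genes were described in a chromatin immunoprecipitation and sequencing (ChIP-seq) experiment against ZTF-11 carrying an enhanced green fluorescent protein (eGFP) tag. A peak belonged to the set when its summit, the position of highest signal, was at most 1000 bp from an annotated snoRNA 5′ end. By this rule 331 of the 30000 nuclear peaks of replicate 1 were members. The rule took 48 of the 2007 nuclear peaks of replicate 2, 40 of the 607 in the pooled list and 10 of the 73 in the thresholded list. The animals were whole L3 larvae of both sexes of strain OP236, which carries unc-119(ed3) on chromosome III and the transgene wgIs236. The labels give 1 group of 2 biological replicates, a library size range of 150 to 350 and the antibody name ztf-11. They describe the target as eGFP-tagged, so it is not settled whether the antibody was to the tag or to the protein, nor whether untagged ZTF-11 was captured too. No untagged strain, other stage or other genotype was used here, so nothing below separates signal that depends on ZTF-11 from other signal. The tagged protein came from a transgene, and whole animals pool all tissues. The replicate lists differ greatly in length and the depth of the libraries is unknown, so peak numbers and ranks were read within a list. The pooled and thresholded lists were made from the same reads as the replicate lists and are not further replicates.

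ZTF-11, a transcription factor with zinc fingers of the Myt1 type, is known for its part in neurogenesis. snoRNAs are short nucleolar RNAs that guide the chemical modification of ribosomal and other RNAs. Those of the C/D class guide 2′-O-methylation by the fibrillarin complex, and those of the H/ACA class guide the conversion of uridine to pseudouridine by the dyskerin complex. Many are processed from introns of protein-coding host genes, and others are transcribed from promoters of their own. In tRNA genes an internal A box and B box bind the factor TFIIIC, which recruits RNA polymerase III. A pair of such boxes is also known upstream of some C. elegans snoRNA genes. Of the 346 nuclear snoRNA genes in the annotation, 216 lay inside a protein-coding gene and 130 outside any. The genes were 54 to 344 bp long, with a median of 130 bp.

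Sequence before the 5′ end is shown first, because the snoRNA genes with a close peak in both replicates often had an A and B box pair there. A pair matching both tRNA consensus boxes stood within 150 bases before the 5′ end, on the strand of the gene, in 17 of the 346 snoRNA genes. All sequences below are from the RefSeq copy of assembly WBcel235, the sequence of ce11, and are written 5′ to 3′ on the strand of the gene. In the first set each run starts 10 bases before the A box and stops at the last base before the snoRNA gene, and the boxes are in capitals. The first 7 of these genes had a peak within 250 bp in both replicate lists, as did T19B4.8, whose sequence is not shown. The last, C41C4.11, had a box pair and a peak in replicate 1 only.
T03F7.8, chrV:11314193-11314257, plus strand: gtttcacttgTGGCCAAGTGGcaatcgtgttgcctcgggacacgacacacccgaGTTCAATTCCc
F32E10.10, chrIV:7574058-7574121, plus strand: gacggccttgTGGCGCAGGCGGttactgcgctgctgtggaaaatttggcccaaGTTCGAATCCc
M106.6, chrII:10840245-10840316, plus strand: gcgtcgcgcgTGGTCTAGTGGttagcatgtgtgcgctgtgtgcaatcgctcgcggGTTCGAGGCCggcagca
C51F7.3, chrV:12303599-12303707, plus strand: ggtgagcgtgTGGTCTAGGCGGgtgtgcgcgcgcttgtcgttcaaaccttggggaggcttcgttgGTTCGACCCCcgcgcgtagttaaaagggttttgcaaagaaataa
T10B9.11, chrII:9774835-9774904, minus strand: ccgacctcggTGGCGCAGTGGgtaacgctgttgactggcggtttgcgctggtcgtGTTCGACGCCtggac
W03C9.9, chrII:11960816-11960897, plus strand: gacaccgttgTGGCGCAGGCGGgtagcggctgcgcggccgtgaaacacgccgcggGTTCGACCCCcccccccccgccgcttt
F11A10.9, chrIV:12086634-12086708, plus strand: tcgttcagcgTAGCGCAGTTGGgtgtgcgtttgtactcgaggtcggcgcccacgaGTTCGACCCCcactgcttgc
C41C4.11, chrII:8107271-8107336, minus strand: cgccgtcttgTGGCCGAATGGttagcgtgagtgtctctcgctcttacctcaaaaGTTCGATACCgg
For contrast, sequence is shown for ZK994.7 and K11H12.13, which had thresholded peaks but no such pair. Each run here holds 120 bases before the gene, the gene in capitals and 10 bases after it. The thresholded summit of ZK994.7, at −51 bp, lies within its run. The K11H12.13 peak, with its summit at −557 bp, lies outside, so that run shows the bases before the gene and not those of the peak.
ZK994.7, chrV:8500459-8500655, plus strand: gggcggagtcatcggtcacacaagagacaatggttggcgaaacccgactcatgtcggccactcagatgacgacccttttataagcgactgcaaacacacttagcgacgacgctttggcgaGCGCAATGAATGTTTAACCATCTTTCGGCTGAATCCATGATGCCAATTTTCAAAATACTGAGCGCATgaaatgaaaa
K11H12.13, chrIV:654219-654481, minus strand: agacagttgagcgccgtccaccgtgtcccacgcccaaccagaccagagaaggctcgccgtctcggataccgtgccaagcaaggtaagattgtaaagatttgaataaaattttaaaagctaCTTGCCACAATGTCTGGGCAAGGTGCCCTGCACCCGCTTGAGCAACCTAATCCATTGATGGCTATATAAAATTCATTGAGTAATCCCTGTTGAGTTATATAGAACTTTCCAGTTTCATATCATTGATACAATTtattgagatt
The distance from the first base of the A box to that of the B box was 39 to 55 bp over the 17 genes, with a median of 45. The B box started 11 to 44 bp before the gene, with a median of 15. None of the 17 pairs overlapped an annotated tRNA gene on the nuclear chromosomes, and the closest tRNA gene to any of these snoRNA genes was 1106 bp away.

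snoRNA genes had a peak more often than genes as a whole in every list. In replicate 1, 237 of the 346 had a summit within 1000 bp of the 5′ end (68.5%, exact 95% confidence interval 63.3 to 73.4), against 41.1% of all 46890 nuclear genes. In replicate 2 the number was 48 (13.9%, interval 10.4 to 18.0) against 5.03%. In the pooled list it was 43 (12.4%, interval 9.14 to 16.4) against 1.75%. The thresholded list held 12 (3.47%, interval 1.80 to 5.98) against 0.239%. Each interval lay above the share over all genes. All genes include 15363 genes of piRNAs, a further class of small RNA. Of these 21.4% had a peak in replicate 1, 4.84% in replicate 2 and 0.631% in the pooled list. Protein-coding genes had 48.9%, 4.81%, 1.58% and 0.205% in the lists, in the order above. Genes annotated as ncRNA had 57.1%, 5.58%, 3.31% and 0.451%. The shares of these last types also lay below the snoRNA intervals. The intervals cover counting error only and treat genes as separate, although neighbouring genes can share a peak. No test was run.

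In both replicate lists at once, 40 snoRNA genes had a peak within 1000 bp (11.6%, interval 8.39 to 15.4), against 2.85% of all genes. At 30 of the 40 a replicate 1 and a replicate 2 peak of the window overlapped, and at the other 10 they lay apart. A further 197 had one in replicate 1 only, 8 in replicate 2 only, and 101 in no list. The other genes of small noncoding RNAs gave a scale for these shares. Of the 612 tRNA genes 11.8% had a peak in both lists, and of the 129 genes of small nuclear RNAs (snRNAs, the RNAs of the spliceosome) 10.9% did. Their intervals, 9.32 to 14.6 and 6.06 to 17.5, overlapped that of snoRNA genes. MicroRNA genes had 4.21% (interval 2.12 to 7.42) and protein-coding genes 3.11%. Within 250 bp in both lists the share was 4.34% for snoRNA genes (15 genes, interval 2.45 to 7.05), 6.54% for tRNA genes and 7.75% for snRNA genes. It was 0.561% for protein-coding genes and 0.663% for all genes.

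**Figure D1:**
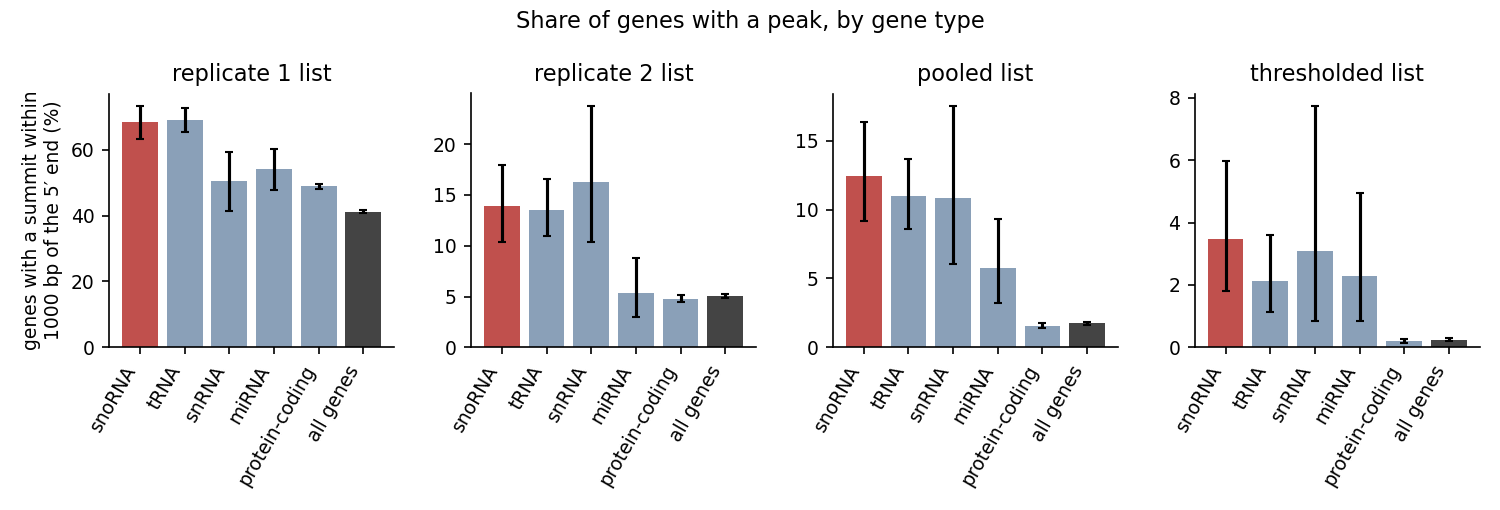
Share of genes (%, vertical axis) with a summit within 1000 bp of the 5′ end, by gene type, in each of the 4 peak lists; the vertical scale differs between panels. Bars are shares and whiskers exact 95% confidence intervals. snoRNA genes stand at 68.5%, 13.9%, 12.4% and 3.47%, close to tRNA genes and above all genes in each panel.

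Peaks at snoRNA genes were ranked above the middle of the replicate 1 list. The signal score, the value that the authors' peak caller gave to each peak, ran from 6.34 to 38.4 over the 331 members. Its median was 10.2, against 8.84 over all nuclear peaks of the list. The median member stood at 33.6% of the list counted from the strongest, and 81 members (24.5%) were among its strongest 10%. In the pooled list the median member stood at 32.5% and in replicate 2 at 43.7%.

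Members were also found in replicate 2 more often than replicate 1 peaks as a whole. Of the 331, 33 were overlapped by a replicate 2 peak (9.97%, interval 6.96 to 13.7), against 2.39% of all nuclear replicate 1 peaks. A pooled peak overlapped 43 members (13.0%), against 2.11%. The higher share held in each band of rank. Among the strongest 1% of replicate 1 it was 8 of 25 members (32%) against 22.3% of all peaks there. From 1% to 10% it was 9 of 56 (16.1%) against 3.70%, from 10% to 50% it was 10 of 124 (8.06%) against 2.29%, and from 50% to 100% it was 6 of 126 (4.76%) against 1.83%. Each band holds few shared members, and the difference was not tested. In the other direction, 30 of the 48 members in replicate 2 (62.5%) overlapped a replicate 1 peak, against 33.7% of all nuclear replicate 2 peaks. All 40 pooled members lay at a replicate 1 peak, but so did 578 of all 607 nuclear pooled peaks (95.2%). At a replicate 2 peak lay 19 of the 40 (47.5%), against 47.8% of all nuclear pooled peaks. Members of the pooled list were thus found in replicate 2 about as often as its peaks as a whole. At the 33 shared positions the median distance between the summits of the replicates was 113 bp, against 115 bp over all 716 shared positions. The signal scores of the replicates had a Spearman's rho of 0.38 over the 33 positions, against 0.215 over all 716. These values describe overlapping peaks in 2 libraries. The median shared member stood at 4.75% of the replicate 1 list, against 35.5% over all shared positions. In the replicate 2 list it stood at 32.2%, against 39.5%. These differences were not tested.

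**Figure D2:**
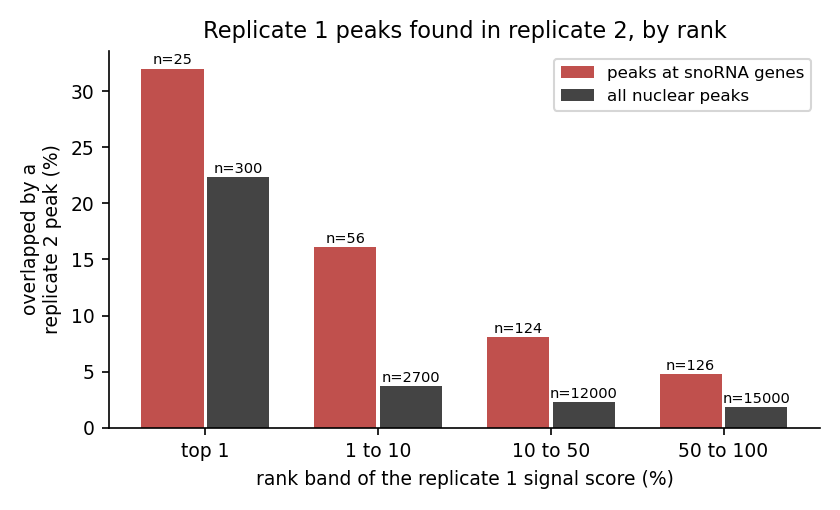
Share of replicate 1 peaks overlapped by a replicate 2 peak (%, vertical axis) in 4 bands of the replicate 1 signal score rank (horizontal axis), for peaks at snoRNA genes and for all nuclear peaks; n is the number of peaks in each bar. The members' bar is the higher in each band, at 32%, 16.1%, 8.06% and 4.76%.

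The place of the snoRNA gene, inside a protein-coding host or outside, was examined next. In replicate 1, 160 of the 216 snoRNA genes inside hosts had a peak (74.1%), against 77 of the 130 outside (59.2%). On the autosomes the shares were 74.8% of 206 and 64.5% of 107. The 23 genes outside hosts on X had a peak in 8 cases (34.8%). By chromosome the share in replicate 1 ran from 42.4% of the 33 genes on X to 78.2% of the 55 on V, against 56.6% of all genes on X and 47.3% of all genes on V. The replicate 1 share on X was thus below that of all genes there, but 33 genes are few and the difference was not tested. In the pooled list 1 of the 33 on X had a peak (3.03%), against 1.75% of all nuclear genes. In replicate 2 the shares inside and outside were 14.4% and 13.1%, in the pooled list 12.5% and 12.3%, and in both replicate lists 13.0% and 9.23%. Within 250 bp the order was the other way in replicate 2, with 4.63% inside and 6.92% outside, in the pooled list, with 6.48% and 10%, and in both replicate lists, with 3.70% and 5.38%. In replicate 1 it was 36.6% and 34.6%, or 38.3% and 39.3% on the autosomes. The order thus depended on the distance, and the difference was not tested. The strength of the peaks was also similar, with the median replicate 1 member at 33.7% of the list inside hosts and at 31.1% outside. Replicate 2 overlapped 9.59% of the 219 members inside hosts and 10.7% of the 112 outside.

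Summits were mostly closer to the snoRNA than to the start of its host. Of the 23 pooled members at host-embedded genes, 19 had their summit nearer the snoRNA 5′ end and 4 nearer that of the host. The numbers were 196 and 23 in replicate 1 and 23 and 7 in replicate 2. The rule itself keeps summits near snoRNAs, so these counts describe the members only. When the 5′ end of any protein-coding gene was considered, it was the nearer one for 65 of the 331 members in replicate 1, 10 of 48 in replicate 2, 6 of 40 in the pooled list and 3 of 10 in the thresholded list. For those peaks the data do not tell the snoRNA gene from its protein-coding neighbour. Noncoding neighbours were not counted, and at some other members they had the nearer 5′ end. The pooled summit at W06H8.17 was 280 bp from the snoRNA and 68 bp from the noncoding gene W06H8.14. That at T08B2.13 was 53 bp from the snoRNA and 15 bp from a pseudogene.

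Within the window, pooled summits gathered just upstream of the snoRNA. Of the 40 pooled members 20 lay within 100 bp of the 5′ end and 17 of these were upstream, 9 at genes inside hosts and 8 at genes outside. The median distance was 95.5 bp. In replicate 1, 69 of 331 (20.8%) lay within 100 bp, 46 of them upstream, with a median distance of 386 bp. Replicate 2 had 10 of 48 within 100 bp, of which 4 were upstream, and a median distance of 327 bp. The gathering upstream was thus seen in the pooled and replicate 1 lists, and not in replicate 2 by these counts.

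**Figure D3:**
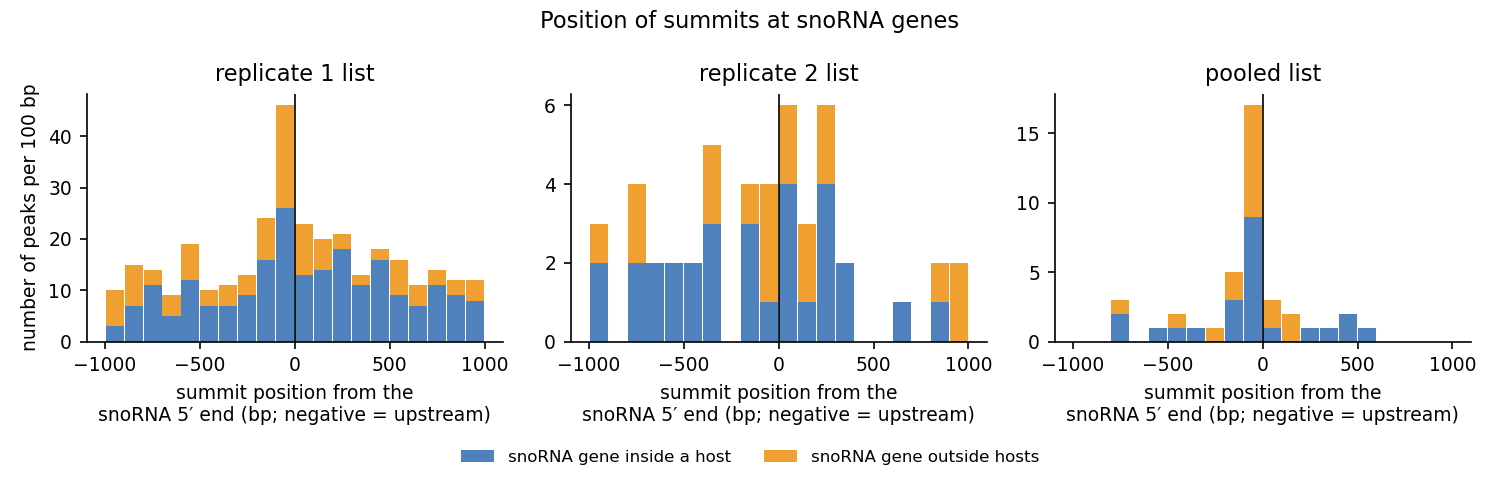
Number of peaks per 100 bp (vertical axis) by the position of the summit from the snoRNA 5′ end in bp (horizontal axis, negative upstream), in the replicate 1, replicate 2 and pooled lists; colours give the place of the nearest snoRNA gene, inside or outside a protein-coding host. The tallest bar of the pooled list is the 100 bp just upstream, with 17 peaks, and that of replicate 1 the same 100 bp, with 46.

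The 10 thresholded members had summits from −31 to −720 bp, 5 of them close to the snoRNA and 3 nearer the start of a host. Signed positions below are distances of the summit from the 5′ end, negative upstream, and all 10 were upstream of their nearest snoRNA gene. T03F7.8, a snoRNA gene inside cutl-18 on the opposite strand, had its thresholded summit at V 11314204, at −54 bp. The peak had a signal score of 38.4 and rank 10 of the nuclear list in replicate 1. Its score was 22.2 in replicate 2, at rank 125, and 56.7 in the pooled list. This was the highest ranked member of replicate 1. Replicate 2 held 2 peaks here: the stronger had its summit 212 bp from the pooled one, at 158 bp downstream of the 5′ end, and a weaker one, at rank 1606 with a score of 15.2, had it 37 bp from the pooled one, at −91 bp.

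F32E10.10, outside any host, had its summit at IV 7574048, at −74 bp, and the nearest protein-coding 5′ end, that of the chromodomain gene cec-4, was 1670 bp away. It ranked 146 in replicate 1 with a score of 22.8 and 42 in replicate 2 with 27.5. The summits of the replicates were at −51 and −88 bp, the first within the box pair and the second upstream of it. C51F7.3, inside frm-7, a gene of a FERM domain protein, had its summit at V 12303677, at −31 bp. It ranked 60 in replicate 1 with a score of 27.2 and 167 in replicate 2 with 21.3. The annotated snoRNA gene C51F7.4, on the same strand, lies just upstream and holds the box pair of C51F7.3, so this peak counts for both genes.

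M106.6, inside mix-1, a gene of an SMC protein of condensin and of the dosage compensation complex, had its summit at II 10840207, at −110 bp, and the 5′ end of mix-1 was 15961 bp away. It ranked 208 in replicate 1 with a score of 21.7 and 79 in replicate 2 with 23.6. The replicate 1 summit was at 39 bp, downstream of the 5′ end, and the replicate 2 summit at −139 bp. These 4 genes all had the box pair. ZK994.7, in an intron of the peroxidasin gene pxn-1, had its summit at V 8500528, at −51 bp. It ranked 14 in replicate 1 with a score of 35.3, and was the one thresholded member with no overlapping peak in replicate 2. A tRNA gene, WBGene00023221, lay 892 bp from this summit. The 9 of 10 thresholded members with an overlapping replicate 2 peak (90%) stand beside 61 of all 73 nuclear thresholded peaks (83.6%).

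The other 5 thresholded summits lay farther upstream of the snoRNA, and 3 of them nearer to the 5′ end of the host. The peak of K11H12.13 and K11H12.12, in introns of rpl-15, a gene of the large ribosomal subunit, lay at IV 654918, at −557 bp from the former and −888 bp from the latter. The 5′ end of rpl-15 was 342 bp away. It had the highest score of the pooled members, 77.9, and ranked 180 in replicate 1 and 4 in replicate 2. The peak of C06A1.9 lay at II 10563555, at −491 bp and 148 bp from the 5′ end of its host cdc-48.1, a gene of an AAA ATPase. It ranked 3201 in replicate 1 and 10 in replicate 2. F54C9.12 had its summit at II 8561492, at −720 bp and 125 bp from the 5′ end of iff-2, a gene of translation factor eIF5A. It ranked 272 and 250 in the replicates. For these 3 peaks the rule was met, but a protein-coding promoter was closer.

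The last 2 lay outside hosts and more than 1000 bp from any protein-coding 5′ end. T27A8.8 on X had its summit at 16056657, at −717 bp, and the nearest protein-coding 5′ end was 1112 bp away. It ranked 3214 in replicate 1 and 13 in replicate 2. C26C6.13 had its summit at I 7518407, at −415 bp, with the nearest protein-coding 5′ end 3281 bp away and the noncoding gene C26C6.14 at 833 bp. It ranked 1109 and 24 in the replicates. The order of the members differed between the lists: K11H12.13, C06A1.9, T27A8.8 and C26C6.13 came first in replicate 2, and T03F7.8 and ZK994.7 in replicate 1. At all 10 summits, none of the 166 words of 36 bases in the 100 bp to either side occurred elsewhere in the genome.

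The strongest members of each replicate list extended this picture. After T03F7.8 and ZK994.7, the next in replicate 1 were Y37E3.22 at rank 27, ZK265.10 at 33, T04A8.17 at 50, and the C51F7.4 peak at 60. They were followed by H06I04.8 at 66, Y23H5B.10 at 67, C17H12.36 at 78 and W06H8.17 at 80. The summits at ZK265.10, T04A8.17 and Y23H5B.10 were at −32, −18 and −82 bp, as close as those at the genes with the box pair, which these 3 lack. The Y37E3.22 summit was 72 bp from the 5′ end of rla-1, a gene of an acidic ribosomal protein. Of these 10 peaks, those at T03F7.8 and C51F7.4 were overlapped in replicate 2.

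In replicate 2 the strongest 10 began with K11H12.13, C06A1.9, T27A8.8 and C26C6.13 at ranks 4, 10, 13 and 24. Then came F32E10.10 at 42, M106.6 at 79, T03F7.8 at 125, C51F7.4 at 167, F42A8.4 at 198 and T08B6.64 at 227. The first 8 were also thresholded members. F42A8.4 lay at the edge of the window, with the summit at 995 bp downstream, and its overlapping replicate 1 peak ranked 27425. T08B6.64, outside any host, had its summit at 154 bp and an overlapping replicate 1 peak at rank 946. The 10 strongest pooled members were the 10 thresholded ones.

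Among pooled members the 1000 bp limit cut through a thin part of the distribution. The summits just inside it were those of F54C9.12 at 720 bp, with a score of 43.2, and F53G12.12 at 721 bp, with a score of 27.7. The nearest outside were at W06H8.17, 1067 bp away with a score of 37.4, and at Y37E3.22, 1205 bp away with a score of 31.1. No pooled summit lay between 721 and 1067 bp.

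Peaks were frequent at the 17 genes with the upstream box pair. The search for the pair was chosen after the peaks were seen, so its shares are descriptions and were not tested. Of the 17 genes, 14 had a summit within 250 bp in replicate 1 (82.4%), against 110 of the 329 without a pair (33.4%). The share over all nuclear genes was 14.9%. In replicate 2 it was 9 (52.9%) against 10 (3.04%), with 1.65% over all genes, and in both lists 8 (47.1%) against 7 (2.13%), with 0.663% over all genes. The pooled list held 8 (47.1%) against 19 (5.78%), with 0.81% over all genes, and the thresholded list 4 (23.5%) against 2 (0.608%), with 0.113%. At 3 snoRNA genes, among them C51F7.4, a pair starts inside the gene, and these count here as without a pair. C51F7.4 shares its peak with C51F7.3, which has the pair, so that peak counts on both sides in every list. Widening the distance to 1000 bp left the counts of the 17 genes as they were and raised those without a pair, in both lists to 32 (9.73%). Thus 8 of the 15 snoRNA genes with a close peak in both replicates had the pair, and at all 15 the peaks of the replicates overlapped.

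The pair itself was rare in other gene types. In the 150 bases before the 5′ end it stood in 4.91% of snoRNA genes and in none on their opposite strand. It stood in 0.0704% of all nuclear genes (33 of 46890), 4 of 19973 protein-coding genes and 1 of 612 tRNA genes, whose own boxes lie inside the gene. No snRNA or microRNA gene had it. Of the 17, 8 were inside hosts and 9 outside, and 4 of each class had a peak in both replicates. A noncoding RNA gene or a pseudogene was annotated over 6 of the 17 pairs; at Y59E1B.14 it was a pseudogene alone.

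The replicate 1 summits at these genes lay near the boxes. The closest summit was between −141 and 89 bp from the 5′ end at the 14 genes, with a median of −55.5 bp, and 13 of the 14 were within 100 bp. The A box started between 54 and 99 bp before the 5′ end. At the 223 genes without the pair and with a replicate 1 summit within 1000 bp, 25.6% of the closest summits were within 100 bp. The median rank of the strongest peak was 3.71% of the list at the genes with the pair and 33.7% at those without. In replicate 2 the summits were spread more widely, from −186 to 214 bp, with 5 of 9 within 100 bp.

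Of the 14 genes with a replicate 1 peak, 13 stood in the strongest 17.9% of the list, and F11A10.9 at 63.3%. T10B9.11, outside hosts, ranked 546 in replicate 1 with the summit at −76 bp and 278 in replicate 2 with the summit at 120 bp. T19B4.8, also outside, ranked 1349 and 696, with summits at −79 and 77 bp. W03C9.9 ranked 4072 and 367, with summits at −87 and −3 bp, and had no pooled peak. F11A10.9, in an intron of rbm-34, was the weakest of the genes with both, at ranks 18975 and 1638. T08B2.13, in an intron of the phenylalanine tRNA ligase gene fars-1, and T02E1.9 had a replicate 1 and a pooled peak, at replicate 1 ranks 874 and 1575. F55A11.10, T24H7.6, C41C4.11 and Y75B12B.12 had a replicate 1 peak alone, at ranks 710, 2317, 3587 and 5357. Y59E1B.14 on X had a replicate 2 peak alone, at rank 652, and Y39G10AR.24 and Y6B3B.15 had no peak in any list.

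**Figure D4:**
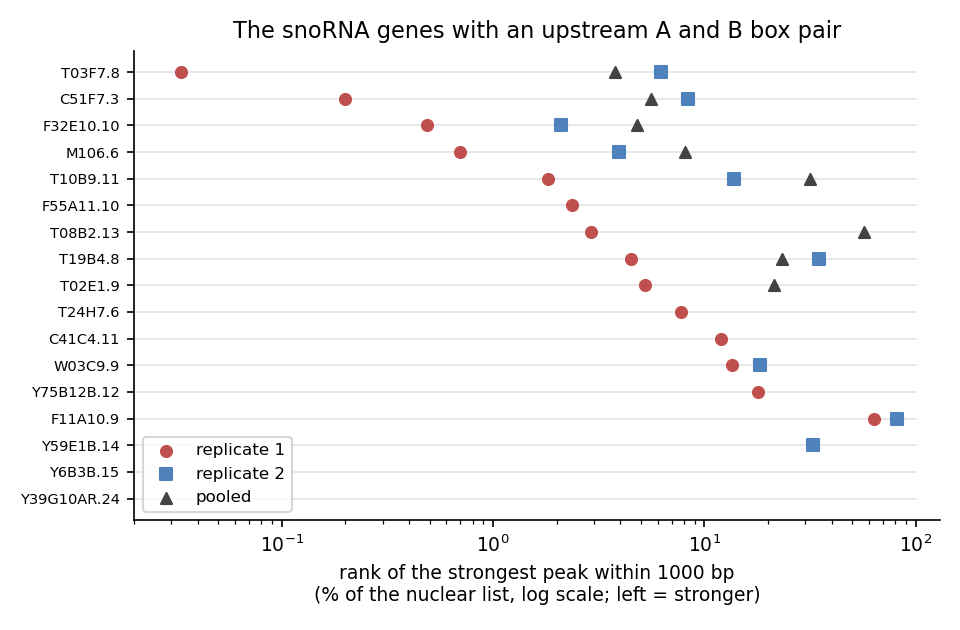
Rank of the strongest peak within 1000 bp of each of the 17 snoRNA genes with an upstream box pair (horizontal axis, % of the nuclear peaks of the list, log scale, stronger to the left); symbols give the list, and a missing symbol means no peak. Replicate 1 ranks run from 0.0333% at T03F7.8 to 63.3% at F11A10.9, and Y6B3B.15 and Y39G10AR.24 have none.

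**Figure D5:**
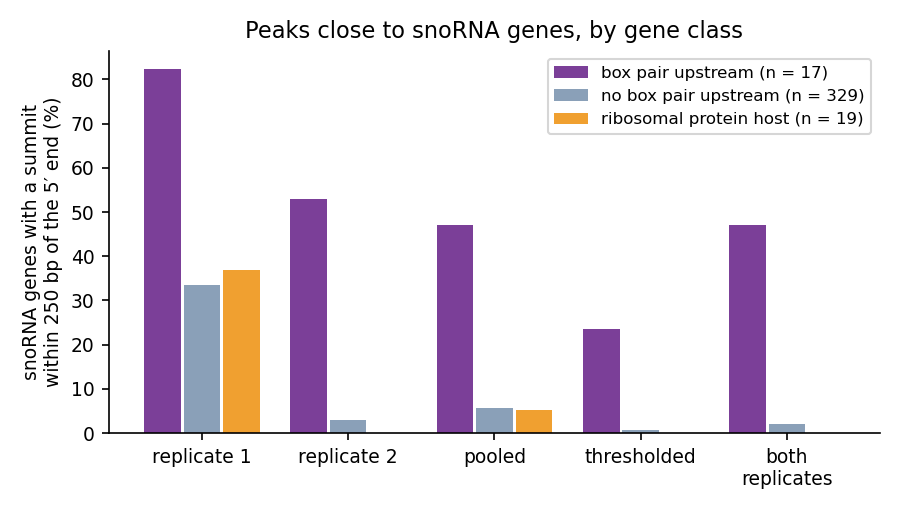
Share of snoRNA genes with a summit within 250 bp of the 5′ end (%, vertical axis) in each list and in both replicate lists, for genes with the box pair (n = 17), without it (n = 329) and inside ribosomal protein hosts (n = 19, which overlap the other classes). With the pair 47.1% had a close peak in both replicate lists, without it 2.13%, and in ribosomal protein hosts 0%, near the 4.34% over all snoRNA genes at n = 19. C51F7.4, counted without the pair, shares its peak with C51F7.3, counted with it.

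snoRNA genes in ribosomal protein genes were examined as a class of host. These 19 genes lie in 13 hosts named rpl or rps, which encode proteins of the large and small ribosomal subunit. Within 1000 bp, 17 had a peak in replicate 1, 5 in replicate 2, 6 in the pooled list and 2 in the thresholded list, and 5 had one in both replicates (26.3%, against 11.6% of all snoRNA genes). Within 250 bp, 7 had one in replicate 1 (36.8%, against 35.8% of all snoRNA genes), 1 in the pooled list and 0 in replicate 2, where all snoRNA genes had 5.49%. With 4.34% of all snoRNA genes having a close peak in both replicates, 0 of 19 is near the background and is not read as a difference. The 5 with a peak in both replicates were F53G12.12 in rpl-7, both genes of rpl-15 described above (K11H12.12 and K11H12.13), Y43B11AR.7 in rps-4 and F28D1.13 in rps-23. Both genes of rpl-15 count the same peak, also in the thresholded list. With 19 genes, the 26.3% is not read as a difference either. In replicate 2 the summits at rpl-7, rpl-15 and rps-23 were nearer the 5′ end of the host than that of the snoRNA. The rps-4 summit was nearer the snoRNA than the host. Other genes were closer still at rps-4 and rpl-7. The rps-4 summit was 320 bp from the snoRNA but 106 bp from the 5′ end of the protein-coding gene Y43B11AR.3. The rpl-7 summit was 478 bp from the host but 16 bp from the noncoding gene F53G12.15. At 4 of the 5 genes the peaks of the replicates overlapped. At F28D1.13 they did not: the replicate 2 peak, at rank 238, had its summit 122 bp from the 5′ end of rps-23 and at −520 bp from that of the snoRNA, and the replicate 1 peak, at rank 14582, had it at 256 bp downstream. The 1 close pooled peak was at F54E7.11 in rps-12, with the summit at −26 bp and rank 166.

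The class of guide was read from the letters of the annotated gene. TGATG in the first 15 bases with CTGA in the last 15 bases, the cores of the C and D boxes, was found in 22 genes. ACA placed 2 to 4 bases before the 3′ end, the ACA box, was found in 75, and 249 had neither, so most genes were not assigned. Of the 22 with C and D box letters 6 had a peak in both replicates (27.3%), of the 75 with ACA box letters 10 (13.3%), and of the 249 with neither 24 (9.64%), against 11.6% of all snoRNA genes and 2.85% of all nuclear genes. The ACA share is close to that of all snoRNA genes. Of the 22 genes 6 also had the upstream box pair, against 3 of the 75 and 8 of the 249. In the pooled list the order differed, with 5 of 22, 17 of 75 and 21 of 249, or 22.7%, 22.7% and 8.43%, against 12.4% of all snoRNA genes and 1.75% of all nuclear genes. The classes are small and no difference between them was tested.

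Sequence around the summits, 100 bp to either side and on either strand, was compared with all nuclear peaks of the same list. AAGTTT, the core of Myt1-family sites, was found at 17.8% of the members in replicate 1 against 23.1% of all peaks, and at 25% against 34.5% in replicate 2. In the pooled list it was 27.5% against 19.4% and in the thresholded list 3 of 10 (30%) against 9 of 73 (12.3%). The 10 thresholded members are also pooled members, so those lists are not separate observations. The direction thus differed between the replicate lists and the lists made from both. GTTCGA, which can form the start of a B box, was more frequent at members in every list. It was found at 12.1% against 8.44% in replicate 1 and 20.8% against 7.57% in replicate 2. The pooled list had 27.5% against 12.0%, and the thresholded list 3 of 10 (30%) against 14 of 73 (19.2%). The A and B box pair stood at 4.23% of replicate 1 members against 0.51% of all peaks, at 8.33% against 1.44% in replicate 2 at 17.5% against 5.11% in the pooled list and at 3 of 10 against 8 of 73 in the thresholded list. TATAAA was found at 13.9% against 13.5% in replicate 1 and 31.3% against 24.4% in replicate 2. The pooled list had 30% against 15.3%, and the thresholded list 4 of 10 (40%) against 17 of 73 (23.3%). A match is a count of letters and not a binding site.

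Genes of the proteins that work with snoRNAs were examined by a list of 13, all of them in the annotation. Within 1000 bp of the 5′ end, 7 of the 13 had a replicate 1 peak (against 41.1% of all genes), 1 a replicate 2 peak and 0 a pooled or thresholded one. Of the C/D complex, fib-1, the methyltransferase fibrillarin, had a peak at rank 27573, nol-58 at 6886 and snu-13 at 15217, and nol-56 had none. Of the H/ACA complex, nola-3 had a peak at rank 16892, and dkc-1, the pseudouridine synthase dyskerin, Y48A6B.3 and garr-1 had none. Among assembly and nucleolar factors, ruvb-1, a helicase of the R2TP complex, had a peak in both replicates. Replicate 1 held 2 peaks within 1000 bp of its 5′ end, and the one reported here had rank 10104 and its summit at 644 bp. In replicate 2 ruvb-1 had a peak at rank 721 with the summit at −105 bp. The distance of the other replicate 1 peak from it is not given here. The partner of ruvb-1, ruvb-2, ranked 10801 and nst-1, a nucleolar GTPase, 9154 in replicate 1, and dao-5 and nucl-1 had no peak. The list is short, and beside the shares over all genes of 41.1%, 5.03% and 1.75% in the replicate 1, replicate 2 and pooled lists these counts are not read as a result about it.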

How the data were processed

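The authors' peak lists comprise 1 for each replicate, set against a control, 1 for the pooled replicates, and 1 thresholded by the irreproducible discovery rate (IDR), per the labels' records. The sources used here name no peak caller, aligner, filter or IDR threshold. A deposited peak carries the authors' signal score, on a scale that is not given, and the authors' −log10 q-value; both are their own values, used to rank or describe peaks within a list. The lists on ce11 were used and those on ce10 were not. No read numbers are given, so depth is unknown.

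Summits were set against the 5′ ends of Ensembl 115 genes on WBcel235, which is ce11, with 1-based positions. A snoRNA gene was inside a host when it lay within a protein-coding gene on either strand. Peaks were shared when they overlapped by 1 bp or more. Shares have exact Clopper-Pearson 95% confidence intervals. With 1 group of 2 biological replicates no test between groups exists and none was run. The members and lists were chosen with earlier results of these data known. Genes were named when they lay at a thresholded member, at the 10 strongest members of each list or next to the 1000 bp limit, or were in the snoRNA protein list. The genes with the box pair, other than those the rule took, and F28D1.13, F54E7.11 and Y43B11AR.7 were named after their values were seen. An A box had to start 20 to 90 bp before its B box. Distances, matching and overlap were tested on simulated data. Python 3.11.15, pandas 2.3.3, numpy 2.4.6, scipy 1.17.1 and matplotlib 3.10.9 were used.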

Additional observations from a re-analysis of the deposited data

How the results depend on the processing

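Of 40 alternatives over 9 values, 28 kept the value and 12 moved it; a count was kept when within 1.5 times, and a share or a median rank when within the 95% interval of the main value. The number of replicate 1 peaks at snoRNA genes went from 331 to 199 with a distance of 500 bp, 573 with 2000 bp and 205 above the median score of the list; in replicate 2 that left 30 of the 48. The share of snoRNA genes with a peak in both replicate lists, 11.6%, was 7.23% at 500 bp, 17.1% at 2000 bp and 7.80% above the median score of each list. Leaving out 1 replicate gave 13.9% without replicate 1 and 68.5% without replicate 2, since the requirement for the other list then falls away. The share of replicate 1 members inside a host, 66.2%, was 56.5% for hosts on the same strand and 55.0% for introns. Their median rank of 33.6% became 40.5% at 2000 bp. The share of genes with the box pair and a close peak in both lists, 47.1%, was 52.9% without replicate 1 and 82.4% without replicate 2; the alternatives for the box pair were chosen after seeing the data. No paired analysis was possible because there is 1 group. With depth unknown, a missing replicate 2 peak does not show that the signal is absent there.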
